A study of Homo sapiens with 17 samples.

Results

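The E2F transcription factors and their DP dimerization partners were followed through proliferation, quiescence, oncogene-induced senescence and transformation of human fibroblasts. E2F proteins bind the promoters of genes needed for DNA replication and division. E2F1, E2F2 and E2F3 are the activators, released when cyclin-dependent kinases phosphorylate the RB protein. E2F4 and E2F5 repress through the pocket proteins p107 and p130, E2F6 represses through Polycomb complexes, and the atypical E2F7 and E2F8 repress without a DP partner. TFDP1 and TFDP2 encode the DP proteins with which the other E2Fs bind DNA. The members were chosen by name, and all 10 of 10 were among the 9699 transcripts analysed, with 1 transcript per gene: 3 activators, 5 repressors and 2 partners. The transcripts that stood for the genes discussed most were ENST00000343380 (E2F1), ENST00000322886 (E2F7), ENST00000527884 (E2F8) and ENST00000489671 (TFDP2).

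The cells were BJ cells, primary human fibroblasts immortalized with hTERT, the catalytic subunit of telomerase, and grown with 10% serum. The 5 states were profiled by RNA-Seq (9 samples) and by Ribo-Seq (8 samples), the sequencing of ribosome-protected fragments. They were proliferation, quiescence after serum depletion, pre-senescence after 5 days and senescence after 14 days of 4-OHT-tamoxifen in cells with a tamoxifen-inducible RASG12V, and a transformed state. The transformed cells carried a p16INK4A knockdown, a further knockdown not reported here, SV40 small T and a retroviral RASG12V. Levels are FPKM, a read density scaled to transcript length and library size. The deposited table had set every value under 1 to 1, so a value of 1 means 1 or less, here called the floor.

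The table held 12 columns, 6 for each assay, and 5 of them joined 2 samples each. Each condition therefore had 1 value per assay, and no replicate test was possible. Quiescent and pre-senescent cells were compared with the proliferating column of run 1, and senescent and transformed cells with that of run 2. The samples were processed and sequenced in 2 runs. The study lists paired-end RNA-Seq for run 1 and not for run 2. Between the proliferating columns, library type, processing run and the cells themselves cannot be told apart. A gene was called lower or higher when it differed at least 2-fold, and counts of members are given beside the percentage of all tested rows called in that direction. The only state with more than 1 column per assay was proliferation. Between its 2 columns the SD of the log2 difference over all genes was 0.63 for RNA and 0.84 for Ribo-Seq, and 7.97% and 18.9% of rows differed at least 2-fold. Whether the samples came from separate cultures was not given in the sources used here beyond the study calling them biological replicates.

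The Ribo-Seq samples titled S and C3 carry each other's condition in a second label field. The titles were followed: over all 9699 rows the log2 Ribo-Seq column titled S correlated best with senescent RNA (r = 0.897), and the column titled C3 with the RNA of the run 2 proliferating cells (r = 0.875). CDKN2A RNA, whose product p16INK4A was a knockdown target in the transformed cells, was 12.64 FPKM in the column labelled transformed, above the 6.75 of the run 2 control and below the 17.19 of run 1. HRAS RNA was 311.51 FPKM in the column labelled transformed and 1283.52 to 2415.28 FPKM in the other 5, so this transcript did not separate RAS-induced from proliferating cells. ESR1, whose hormone-binding domain is commonly fused to make a tamoxifen-inducible protein, had 9.31 to 144.22 FPKM of RNA in the other 5 columns, both controls included, and was at the floor in the column labelled transformed. Differences between that column and its control by construct, knockdown or state cannot be told apart. All 9 fibroblast markers were measured, and their summed RNA was between 5004 FPKM in senescent and 7473 FPKM in run 2 proliferating cells. Against the same-run control 0, 5, 7 and 3 of 9 were at least 2-fold lower in quiescence, pre-senescence, senescence and the transformed column. Of all rows 2.43%, 2.05%, 13.2% and 5.39% were. Against both controls 0, 5, 4 and 1 markers were lower (0.728%, 1.38%, 10.3% and 2.37% of rows). In quiescence 2 were higher (4.11% of rows), and 0 against both controls (1.91%). Senescent COL1A1 was 51.57 FPKM against 1328.21 and 371.15 FPKM in run 2 and run 1 proliferating cells. DCN differed between those controls as well, at 164.26 and 27.61 FPKM, and the part of these differences in the results was not tested. Of the markers of other cell types, 3 of 5 epithelial, 1 of 5 blood and 0 of 4 endothelial genes had rows. KRT19 differed between the proliferating columns, at 1.00 FPKM in run 1 and 39.76 FPKM in run 2, and its part in the results was not tested.

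Among the activators, E2F1, the best-known driver of entry into S phase, showed the widest RNA range. Its RNA was 37.74 FPKM in run 1 proliferating cells, 13.48 in quiescent and 19.16 in pre-senescent cells, and 13.56 in run 2 proliferating, 2.23 in senescent and 13.79 in transformed cells. Senescent cells thus had the lowest level, below both proliferating columns, whereas quiescent cells matched the proliferating cells of the other run. The log2 RNA change was -1.49 in quiescence, -0.98 in pre-senescence, -2.60 in senescence and 0.02 in the transformed column, and the 2 proliferating columns themselves differed by -1.48 (run 2 minus run 1). The quiescent change was therefore about as large as the difference between the proliferating columns, and against the run 2 control it was -0.01. Ribo-Seq of E2F1 was 6.10, 2.65 and 5.10 FPKM in the proliferating, quiescent and pre-senescent columns of run 1. In run 2 it was 1.99 in proliferating cells, 1.09 in transformed cells and at the floor in senescent cells. Senescent RNA was 6.08-fold below its control and 16.9-fold below the run 1 control. In these bulk samples fewer cycling cells and less RNA per cell cannot be told apart.

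E2F2, the second activator, was close to the floor. RNA was above it only in the proliferating columns, at 3.14 FPKM in run 1 and 1.55 in run 2, and was listed at 1.00 in the other 4 states. That places RNA at least 3.14-fold lower in quiescent and pre-senescent cells and at least 1.55-fold lower in senescent and transformed cells. Ribo-Seq gave 7.00 FPKM in run 1 proliferating, 2.12 in quiescent and 1.27 in pre-senescent cells, and 1.22, 1.00 and 1.22 in run 2 proliferating, senescent and transformed cells. The proliferating columns differed by -2.52 on the log2 scale, so the run 1 value stood apart from all others, the run 2 control included.

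E2F3, the third activator, varied least of the 3. RNA lay between 7.03 FPKM in senescent and 12.60 FPKM in run 1 proliferating cells, and Ribo-Seq between 8.21 FPKM in senescent and 16.88 FPKM in pre-senescent cells. No change of E2F3 reached 2-fold in either assay, and its largest RNA change was 0.38 on the log2 scale, in the transformed column. Senescent cells had the lowest E2F3 level in both assays.

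Of the repressors, E2F4 was the most abundant E2F at every RNA column and made up 43.4% to 47.0% of the summed E2F RNA. RNA was 73.12 FPKM in run 1 proliferating, 49.75 in quiescent and 74.17 in pre-senescent cells, and 38.30, 30.44 and 54.49 FPKM in run 2 proliferating, senescent and transformed cells. No E2F4 change reached 2-fold against the control of the same run. The proliferating columns differed by -0.93 on the log2 scale, more than any of the 4 same-run RNA changes, which ran from -0.56 to 0.51. Ribo-Seq of E2F4 was lowest in senescent cells (11.20 FPKM) and highest in pre-senescent cells (38.54 FPKM).

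E2F5 had the least RNA of the repressors in proliferating cells, and more in all 4 other states. RNA was 1.21 FPKM in run 1 and 1.28 FPKM in run 2 proliferating cells, 1.85 in quiescent, 1.85 in pre-senescent, 2.77 in senescent and 1.95 in transformed cells. The 2 proliferating columns were the lowest of the 6, and differed by only 0.08 on the log2 scale. Senescence was the 1 state past 2-fold in RNA, 2.16-fold above its control and 2.29-fold above that of run 1. Ribo-Seq followed the same order, from 1.00 and 1.67 FPKM in the proliferating columns through 1.80, 2.73 and 4.05 FPKM in quiescent, pre-senescent and transformed cells to 5.00 FPKM in senescent cells. These levels are low: among rows of 1 to 5 FPKM the proliferating columns differed with an SD of 0.73 (RNA) and 0.99 (Ribo-Seq) on the log2 scale.

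E2F6, the Polycomb-linked repressor, stayed within a narrow range. RNA lay between 4.53 FPKM in senescent and 8.77 FPKM in transformed cells and Ribo-Seq between 4.82 FPKM in run 2 proliferating and 7.17 FPKM in transformed cells. No E2F6 change reached 2-fold in RNA, Ribo-Seq or translation efficiency.

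The atypical repressors differed in opposite directions. E2F7 had 18.87 FPKM of RNA in run 1 proliferating, 25.64 in quiescent and 43.08 in pre-senescent cells, and 9.44, 15.82 and 33.21 FPKM in run 2 proliferating, senescent and transformed cells. Every one of the 4 conditions was above the control of its run, by 0.44, 1.19, 0.74 and 1.81 on the log2 scale in the order quiescence, pre-senescence, senescence and transformed. Pre-senescent and transformed cells passed 2-fold, and pre-senescent cells did so against both controls. The senescent level was below that of run 1 proliferation, since the proliferating columns of the runs differed almost 2-fold. E2F7 Ribo-Seq was 13.07, 15.94 and 29.24 FPKM in the columns of run 1 and 7.82, 16.08 and 21.77 FPKM in proliferating, senescent and transformed cells of run 2. Pre-senescent, senescent and transformed cells were past 2-fold in this assay.

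E2F8 was above the floor only in proliferating and quiescent cells. RNA was 4.41 FPKM in run 1 proliferation, 3.13 in run 2 proliferation and 1.34 in quiescence, and 1.00 in pre-senescent, senescent and transformed cells. It was 3.29-fold lower in quiescence, at least 4.41-fold lower in pre-senescence and at least 3.13-fold lower in senescent and transformed cells. E2F8 was the only member at least 2-fold below both proliferating columns in RNA in all 4 states, a pattern singled out after its values were seen. E2F2 RNA, also at the floor in all 4 states, could not meet this from its run 2 control of 1.55 FPKM. Among rows of 1 to 5 FPKM, where E2F8 lies, 14.6% differed at least 2-fold in RNA between the proliferating columns. Ribo-Seq was 2.79 and 1.62 FPKM in proliferating cells, 1.06 in quiescent cells and at the floor in the other 3 states. Transformed cells, in which MKI67 RNA was 29.22 FPKM against 1.00 FPKM in senescent cells, were at the floor for E2F8 as senescent cells were.

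TFDP1, the major DP partner, was the most abundant of the 10 RNAs in 5 of the 6 columns, E2F4 being higher in pre-senescence. RNA was 94.35 and 87.60 FPKM in the proliferating columns, 60.13 in quiescent, 69.71 in pre-senescent, 56.38 in senescent and 72.43 in transformed cells. All 4 conditions lay below both proliferating columns, yet none by 2-fold, and the proliferating columns differed by -0.11 on the log2 scale. Ribo-Seq had the same split, with 51.28 and 45.68 FPKM in proliferating cells against 30.19, 30.82, 23.48 and 29.72 FPKM in quiescent, pre-senescent, senescent and transformed cells. TFDP2, the second partner, had almost level RNA, from 5.33 to 6.39 FPKM. Its Ribo-Seq was 6.12 and 6.19 FPKM in proliferating cells, 3.80 in quiescent, 6.35 in senescent and 6.43 in transformed cells, but 1.37 FPKM in pre-senescent cells.

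Counted together, few members passed 2-fold in RNA. In quiescence 3 of 10 members were lower (E2F1, E2F2, E2F8; 2.43% of 9473 rows) and 0 higher (4.11%). In pre-senescence 2 were lower (E2F2, E2F8; 2.05% of 9447 rows) and 1 higher (E2F7; 1.82%). Senescence had 2 lower (E2F1, E2F8; 13.2% of 9560 rows) and 1 higher (E2F5; 7.19%), and the transformed column 1 lower (E2F8; 5.39% of 9593 rows) and 1 higher (E2F7; 4.97%). In senescence the members' share of lower calls was near the share of all rows. E2F2 and E2F5, with run 2 RNA controls of 1.55 and 1.28 FPKM, could not be called lower in senescence or the transformed column. The median log2 RNA change over the 10 members was -0.37, -0.05, -0.48 and 0.27 in the same order, beside medians of -0.01, 0.04, -0.02 and 0.09 over all rows.

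Against both proliferating columns at once the RNA calls were fewer. With a control under 2-fold above the floor, E2F2 and E2F5 could not be called lower in RNA this way. The same held for E2F1, E2F2, E2F5 and E2F8 in Ribo-Seq. E2F8 was lower in quiescence (0.728% of rows; 1.91% higher), E2F8 lower (1.38%) and E2F7 higher (1.23%) in pre-senescence, E2F1 and E2F8 lower (10.3%) and E2F5 higher (5.52%) in senescence, and E2F8 lower in the transformed column (2.37%), where 0 members were higher (3.33%). E2F1 and E2F2 in quiescence, E2F2 in pre-senescence and E2F7 in the transformed column met the threshold only against the control of their own run. In Ribo-Seq, taking both controls, 0 members were called in quiescence (3.29% of rows lower, 3.39% higher), TFDP2 was lower (6.2%) and E2F7 higher (3.26%) in pre-senescence, E2F5 was higher in senescence (8.7%; 12.3% lower) and E2F5 was higher in the transformed column (3.4%; 3.56% lower).

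In Ribo-Seq, quiescence had 3 members lower (E2F1, E2F2, E2F8; 8.2% of rows) and 0 higher (9.31%). Pre-senescence had 3 lower (E2F2, E2F8, TFDP2; 10.6%) and 2 higher (E2F5, E2F7; 7.31%). In senescence 0 members were lower (16.8%) and 2 were higher (E2F5 and E2F7, beside 11.2%). TFDP1 was 1.95-fold lower there, and E2F1, at the floor, was at least 1.99-fold lower. In the transformed column 0 were lower (7.44%) and 2 higher (E2F5, E2F7; 5.34%). Against the same-run control E2F5 and E2F7 were thus the members past 2-fold upward in all 3 RASG12V states. Against both controls neither was in all 3. E2F7 passed only in pre-senescence, and E2F5 only in senescence and the transformed column. Over all rows the Ribo-Seq median was shifted by -0.12 in both pre-senescence and senescence, and subtracting that median reversed no call named here.

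Translation efficiency (TE) was the log2 ratio of Ribo-Seq to RNA level, and was taken only where both were above the floor. E2F1 had one of the lowest TE values of the table in every column pair that could be measured. It was -2.63 and -2.77 in run 1 and run 2 proliferating cells, where 0.689% and 0.514% of rows had a lower TE and the medians of all rows were 0.41 and 0.43. The value was -2.35 in quiescent, -1.91 in pre-senescent and -3.66 in transformed cells, with 0.773%, 2.37% and 0.0858% of rows below it. The transformed value rests on a Ribo-Seq level of 1.09 FPKM, close to the floor.

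E2F4 and TFDP1, the abundant members, also had low TE. E2F4 TE was between -1.59 in transformed and -0.94 in pre-senescent cells, and TFDP1 TE between -1.29 in transformed and -0.88 in run 1 proliferating cells. For E2F4 4.85% to 11.4% of rows had a lower TE, and for TFDP1 6.99% to 12.7%. E2F3 was near the median of all rows in each column pair, with 37.1% to 62.2% of rows below it. RNA levels count reads over the whole transcript and Ribo-Seq levels only those over the coding sequence, so a TE level compares a gene with other genes on these 2 scales and not in molecules.

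Changes in TE were small for nearly every member that could be measured. In quiescence 0 of 8 measurable members passed 2-fold (3.97% of rows lower, 3.09% higher), in senescence 0 of 7 (5.87% and 2.68%) and in the transformed column 0 of 8 (1.79% and 0.899%). In pre-senescence 1 of 7 was lower and 0 higher (8.32% and 4.92%). That member was TFDP2, with a TE change of -2.24, and 0.526% of rows had a more negative one. RNA of TFDP2 in the same cells was 6.12 FPKM against 5.80 FPKM in the control. This value comes from 1 Ribo-Seq library of 1.37 FPKM, and whether the library or the cells set it was not tested. The second largest TE change, -0.89 for E2F1 in the transformed column, had RNA of 13.79 against 13.56 FPKM and Ribo-Seq of 1.09 against 1.99 FPKM, so RNA was level while ribosome occupancy was lower by less than 2-fold.

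Activators and repressors were then compared as classes. The median log2 RNA change of E2F1, E2F2 and E2F3 was -1.49 in quiescence, -0.98 in pre-senescence, -0.63 in senescence and 0.02 in the transformed column. That of the 5 repressors was -0.18, 0.23, -0.33 and 0.51. The activator median was below the repressor median in all 4 states, with gaps of -1.30, -1.21, -0.30 and -0.48. Against the other control the gap was -0.39 in quiescence and -0.11 in pre-senescence. In senescence the activator median was the value of E2F2 at the floor, a bound, and with a pseudocount of 1 the gap was -0.03. In Ribo-Seq the activator median was also the lower one, with gaps of -1.43, -0.61, -0.46 and -0.57, but against the other control the quiescent gap was reversed (0.25) and the pre-senescent one was -0.04. The repressor class was not uniform, since E2F8 was lower, as E2F2 was, while E2F5 and E2F7 were higher.

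Summed levels gave a comparison that did not hinge on the choice of control. The 3 activators together had 0.514 and 0.402 of the RNA of the 5 repressors in run 1 and run 2 proliferating cells. The ratio was 0.310 in quiescent, 0.249 in pre-senescent, 0.188 in senescent and 0.263 in transformed cells, in each case below both proliferating columns. In Ribo-Seq the ratios were 0.558 and 0.397 in proliferating cells against 0.355, 0.304, 0.266 and 0.321. All 4 states were again below both controls, although the quiescent and run 2 proliferating ratios were close.

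E2F7 and E2F1 were set against each other as a pair, singled out after the values were seen. E2F7 RNA was 0.500 and 0.696 times that of E2F1 in the proliferating columns. It was 1.90 times in quiescent, 2.25 times in pre-senescent, 7.09 times in senescent and 2.41 times in transformed cells. E2F1 was thus the more abundant RNA in both proliferating columns and E2F7 in the 4 other states. In Ribo-Seq E2F7 was higher in all 6 columns, 2.14 and 3.93 times E2F1 in proliferating cells, 6.02, 5.73 and 20.0 times in quiescent, pre-senescent and transformed cells, and at least 16.1 times in senescent cells.

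Promoter sequences are shown because E2F genes are themselves E2F targets and E2F1, E2F2 and E2F8 were called lower in quiescent RNA against the run 1 control. Against the run 2 control only E2F8 was. RefSeq (GRCh38.p14) gave 300-base windows, 250 bases before to 50 after the start, for 8 of the 10 members, all but E2F5 and E2F8. The windows were searched on both strands for the 8-letter E2F motifs TTTCGCGC, TTTGGCGC, TTTCCCGC and TTTGCCGC, which are different words and did not overlap each other in the members. Of the 11 windows of the members (some genes have several), 4 held a match, beside 3.31% of all 35116 windows and 5.26% of the 10719 windows of genes in the table. The matches belonged to E2F1, E2F2, E2F3 and TFDP1. The 60 bases just upstream of the start are printed for the 3 activators and for E2F7, which had no match, and bases 130 to 71 upstream for TFDP1, 5′ to 3′ on the gene's strand with matched letters in capitals.
E2F1, chr20:33686386-33686445, minus strand: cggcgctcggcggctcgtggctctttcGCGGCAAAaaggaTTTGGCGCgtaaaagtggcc
E2F2, chr1:23531234-23531293, minus strand: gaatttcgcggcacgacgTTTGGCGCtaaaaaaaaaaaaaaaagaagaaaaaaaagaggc
E2F3, chr6:20401819-20401878, plus strand: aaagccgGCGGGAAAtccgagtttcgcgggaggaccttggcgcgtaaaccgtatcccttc
TFDP1, chr13:113584623-113584682, plus strand: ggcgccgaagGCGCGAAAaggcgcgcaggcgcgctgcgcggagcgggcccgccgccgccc
E2F7, chr12:77065570-77065629, minus strand: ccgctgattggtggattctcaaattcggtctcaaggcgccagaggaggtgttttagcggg

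E2F1 held 2 matches, starting 33 and 20 bases upstream of the start, E2F2 held 1 at 42 bases, E2F3 1 at 53 bases and TFDP1 1 at 120 bases. Genes with a match thus included E2F1, 6.08-fold lower in RNA in senescence, and E2F3, whose RNA differed by under 2-fold in all 4 states. The letters describe these windows and no binding was measured here.

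The targets of the E2Fs were read from lists of genes named for their role in the cell cycle. Of 32 G1/S genes, which license and carry out DNA replication, 20 were at least 2-fold lower in RNA in quiescence, 2 in pre-senescence, 31 in senescence and 1 in the transformed column, and 0 were higher in any. The shares of all rows lower in RNA were 2.43%, 2.05%, 13.2% and 5.39%. Their median log2 RNA changes were -1.07, -0.50, -2.99 and 0.03. Against both controls 1 gene was lower in quiescence (CDC25A), 0 in pre-senescence, 31 in senescence and 1 in the transformed column (MCM6), so all but 1 of the 20 quiescent calls rested on the run 1 control. In senescence RRM2, a ribonucleotide reductase subunit, differed by -5.80, TK1, a thymidine kinase, by -5.01, CDC45, a part of the replicative helicase, by -3.98 and CDT1, an origin licensing factor, by -3.67, the latter pair at the floor. Of 17 measured G2/M genes, 15, 1, 17 and 0 were lower and 0 were higher, with medians of -1.20, -0.56, -4.63 and -0.08. Against both controls the G2/M counts were 2 (CCNA2 and CDK1), 0, 17 and 0. UBE2C, BIRC5, PLK1 and CCNA2, which act in mitosis and entry into it, differed by -5.81, -5.53, -5.44 and -5.40 in senescence.

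In senescence, against the same-run control, the G1/S and G2/M medians were more negative than the member median (-0.48) and E2F1 (-2.60). Against the run 1 control E2F1 differed by -4.08, beside medians of -3.64 (G1/S) and -5.21 (G2/M). The senescent changes of E2F2 (-0.63) and E2F8 (-1.65) are bounds set by the floor. In pre-senescence, where E2F2 and E2F8 RNA were at the floor, the G1/S median was -0.50. In the column labelled transformed the G1/S and G2/M medians were close to 0 against the same-run control and -0.68 and -0.67 against that of run 1, with E2F1 RNA at its control level, E2F7 3.52-fold higher and E2F8 at the floor. Median TE changes of the G1/S genes ran from -0.36 to 0.05.

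Of the repressors, E2F4 and E2F5 act through the pocket proteins p107 and p130. Among the genes of the pocket proteins, RB1 included, and of the MuvB core, 7 of 8 were measured. In RNA 0, 0, 3 and 0 were at least 2-fold lower in quiescence, pre-senescence, senescence and the transformed column (2.43%, 2.05%, 13.2% and 5.39% of all rows), and 0, 0, 1 and 0 higher (4.11%, 1.82%, 7.19% and 4.97%). In senescence RBL1 and LIN54 were lower against both controls, and RBL2 and LIN37 were called against that of run 2 alone. MYBL1, MYBL2 and FOXM1, which bind MuvB to activate mitotic genes, were lower in 3, 1, 2 and 0 cases, and against both controls in 1 (MYBL1), 0, 2 and 0. FOXM1 and MYBL2 had 35.05 and 27.77 FPKM in run 2 proliferating cells and were at the floor in senescent cells. RBL1, the gene of the pocket protein p107 and an E2F target, was at 7.15 FPKM in run 2 proliferation and at the floor in senescence, and LIN54, the DNA-binding MuvB subunit, differed by -1.81. MYBL1, a relative of MYBL2, differed by -1.47 in quiescence. The other pocket protein genes, named outside the rule after their values were seen, were RBL2 (p130), which differed by -1.10 in senescence, and RB1 by -0.47, with RB1 between 18.06 and 25.39 FPKM in all 6 columns. LIN37, a MuvB subunit, was the gene of this list that was higher in senescence, by 1.28.

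Upstream of the E2Fs, 13 of 16 cyclin, kinase and inhibitor genes were measured, with 2, 3, 5 and 1 lower and 0, 0, 3 and 0 higher in RNA in the same order, beside the same shares of all rows. Against both controls 0, 1, 5 and 0 were lower and 0, 0, 2 and 0 higher. CDKN1A, the CDK inhibitor p21, was 814.41 FPKM in senescent, 171.63 in run 2 proliferating and 80.30 FPKM in transformed cells, and its differences were 2.25 and -1.10. In run 1 proliferating cells it was 80.77 FPKM, against which the transformed difference was -0.01. CDK2, the kinase of cyclin E, differed by -2.37 in senescence and 0.01 in the transformed column. CDKN2C, an INK4 inhibitor and itself an E2F target, went from 17.35 FPKM to the floor in senescence. CDKN2A differed by 2.05, CDKN1B by -1.74 and CCNE2 by -1.58 in senescence, the last one at the floor. Against the run 1 control the CDKN2A difference was 0.70, and its Ribo-Seq was lower in senescence than in run 2 proliferation, at 6.33 against 8.92 FPKM.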

How the data were processed

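Poly(A) RNA-Seq and Ribo-Seq of BJ fibroblasts were analysed from 1 deposited table of FPKM values. Per the methods and labels, the authors aligned reads with Bowtie to 1 protein-coding transcript per gene (Ensembl release 65, hg19), kept unique matches, computed FPKM over the transcript (RNA-Seq) or the coding sequence (Ribo-Seq) and set values below 1 to 1. Values have 2 decimals, and no read counts per gene were given. The study lists mapped reads for each library, but these were not used here, so no counting interval is given. How 2 samples were joined in a column is not given in the sources used here.

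Groups followed the sample titles. Changes are differences of log2 FPKM (pseudocount 0) against the proliferating column of the same run, over rows above the floor in at least 1 of the 2 columns, or all 4 for TE. With 1 column per condition no p-value was computed, and a fixed threshold of 2-fold was used. Calculations were done in Python 3.11.15 with pandas 2.3.3 and numpy 2.4.6 and were tested on simulated data. All 10 members are described in every column. From the lists up to 6 genes (regulators, by largest RNA change) or 4 genes (targets, by RNA change in senescence) are named. The members and lists were chosen with earlier results of these data known. Alternatives were the control of the other run, a pseudocount of 1, no or a stricter filter, median centring, a 1.5-fold threshold and other repressor classes. Values of some genes of the lists are not reported here.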

Additional observations from a re-analysis of the deposited data

Results flagged for a closer look

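Of the members, 4 had RNA differences of opposite sign in senescent and transformed cells, both with RASG12V. These states differ by the p16INK4A knockdown, a further knockdown not reported here, SV40 small T and the RASG12V construct, which cannot be told apart. On the log2 scale the RNA change in senescence minus that in the transformed column was -2.63 for E2F1 (-2.60 against 0.02), -0.69 for E2F3 (-0.31 against 0.38), -0.84 for E2F4 (-0.33 against 0.51) and -0.95 for E2F6 (-0.63 against 0.32). In Ribo-Seq E2F3 had them as well, with a difference of -0.81 (-0.37 against 0.44). Each state had 1 column and both shared 1 control, and the differences were not tested. The share of all rows with opposite signs was not worked out, so the count of 4 is no result about the members. The E2F1 difference was 6.18-fold between the 2 columns, and those of E2F3, E2F4 and E2F6 were under 2-fold. The transformed E2F1 value was level with its control, and E2F3, E2F4 and E2F6 passed 2-fold in neither state. Against the run 1 control the transformed RNA differences of E2F1, E2F3 and E2F4 were -1.45, -0.15 and -0.42, of the same sign as in senescence.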

How the results depend on the processing

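No paired analysis was possible because each column joins or holds the samples of 1 state with no replicate number, and leaving out a replicate could not be run for the same reason. Of the class gaps and counts of genes past 2-fold, 142 alternative values stayed close to the reported ones, 61 moved and 1 reversed. Of the single members' values 468 stayed close, 79 moved and 6 reversed. Causes were not tested.

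With the control of the other run, the gap between activator and repressor medians was -0.39 (RNA), 0.25 (Ribo-Seq, reversed) and 0.30 (TE) in quiescence and -0.11 (RNA) in pre-senescence. It was -1.16 (RNA) and -2.40 (Ribo-Seq) in senescence and -1.92 and -2.75 in the transformed column. The count of members past 2-fold became 1 for Ribo-Seq in quiescence, and 5 for RNA and 7 for Ribo-Seq in senescence. In the transformed column it became 4 for Ribo-Seq and 1 for TE. Shares of all rows under the alternative settings, here and below, were not worked out, so these counts show only how calls move. Between the 2 proliferating columns themselves 7.97% (RNA) and 18.9% (Ribo-Seq) of rows differed at least 2-fold. Ribo-Seq differences reversed for E2F1 (0.41) and E2F2 (0.80) in quiescence and for E2F2 in pre-senescence (0.058). For the lists, compared this way after seeing the data, the counts lower in RNA in quiescence, pre-senescence and the transformed column became 1, 0 and 9 (G1/S), 2, 0 and 3 (G2/M) and 1, 0 and 1 (MYBL1, MYBL2 and FOXM1). Of the upstream genes 0 were lower in quiescence and 4 in the transformed column, and 1 was higher in each of quiescence and pre-senescence. Of the pocket protein and MuvB core genes 0 were higher in senescence.

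With a pseudocount of 1 the Ribo-Seq counts were 1, 3, 1 and 1 in quiescence, pre-senescence, senescence and the transformed column. Above 5 FPKM the RNA count was 1 in each state, the Ribo-Seq counts were 3, 1 and 1 in the last 3 states, and the gaps were -0.62 (quiescence, RNA), -1.12 (senescence, RNA) and 0.39 (transformed, TE). Without a filter the TE gap was -0.18 in pre-senescence and the TE count 1 in senescence. At 1.5-fold the counts were 5, 5, 7 and 4 for RNA in the 4 states, 6, 6 and 5 for Ribo-Seq in quiescence, senescence and the transformed column, and 2, 1 and 2 for TE in pre-senescence, senescence and the transformed column. With E2F7 and E2F8 as the repressors the gaps were -0.85 (RNA) and -0.65 (Ribo-Seq) in quiescence and -0.50 (RNA) in pre-senescence.

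Exchanging the 2 Ribo-Seq labels that disagree, an alternative chosen after seeing the data, turned the senescent Ribo-Seq differences of E2F5 (-1.58) and E2F7 (-1.04) and the transformed one of E2F5 (-0.30). The gaps became 0.46 (Ribo-Seq) and 1.30 (TE) in senescence and 0.80 (TE) in the transformed column, and the counts 4 (TE, senescence), 0 (Ribo-Seq, transformed) and 1 (TE, transformed). Read counts per gene were not given, and values of E2F2, E2F5 and E2F8 lie near the floor, where differences between proliferating columns were widest.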

Other observations

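The genes whose pattern over the 12 columns was most like that of each member were found by Pearson's r of log2 FPKM, centred within each assay, among genes above the floor in all 12 columns, for members above it in at least 10. The 12 points share libraries and runs, and r is a description. E2F1 was closest to ARID1A (r = 0.959), FAM122B (0.951) and SEPHS1 (0.950), E2F3 to PRPF38B (0.973), NOL12 (0.964) and SFPQ (0.961), and E2F4 to ATAD3A (0.974), NOB1 (0.958) and SFSWAP (0.954). For the others the closest genes were CLTC (0.940), SLC20A1 (0.933) and NPEPPS (0.933) for E2F5, MEPCE (0.901), LRCH1 (0.842) and NETO2 (0.841) for E2F6, PHLDA1 (0.953), ELOVL4 (0.933) and LPXN (0.924) for E2F7, SKP2 (0.949), BUB3 (0.946) and DERA (0.945) for TFDP1, and THAP5 (0.969), CCDC23 (0.962) and CRIPT (0.953) for TFDP2. E2F2 and E2F8 were above the floor in 7 and 6 columns and were not compared. Among the members themselves r was 0.91 between E2F3 and E2F4 and -0.89 between E2F5 and TFDP1.

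Of the genes that act with E2F6 in Polycomb complexes, 10 of 11 were measured. EZH2, a histone methyltransferase and E2F target, was lower in quiescence (-1.32) and senescence (-3.05), and no other gene of the list passed 2-fold in RNA in the 4 states. Of all rows 2.43%, 2.05%, 13.2% and 5.39% were lower and 4.11%, 1.82%, 7.19% and 4.97% higher, from quiescence to the transformed column. Quiescent EZH2 RNA was 7.06 FPKM, against 17.62 in run 1 and 13.39 in run 2 proliferating cells, under 2-fold below the latter. Among pro-apoptotic E2F targets, PMAIP1, which encodes NOXA, was higher in RNA in senescence, by 2.52, and in the transformed column, by 1.08, and APAF1 differed by -0.75 in senescence.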
